A study of Mus musculus with 23 samples.

Results

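Genes of mitosis, the spindle and the kinetochore were followed in A404 cells while they left the undifferentiated state and were selected for a smooth muscle promoter. The list held 43 genes chosen by name and role, and 34 of them carried at least 1 probe assigned to that gene alone, among 8683 genes on the array. Those 34 genes were read by 45 probes, and probes of a gene were averaged. Ccnb1, Cdc25c, Cks1b, Espl1, Ndc80, Kif2c, Kifc1, Hmmr and Kif20a had no such probe and were not analysed here. The measured genes fell into 10 cyclins, kinases and their regulators, 7 checkpoint and anaphase genes, 7 kinetochore and passenger genes, 7 spindle and chromosome genes, and 3 midzone and cytokinesis genes.

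A404 cells were cloned from P19, an embryonal carcinoma line of the mouse. As background, the clone holds a gene for resistance to puromycin driven by the Acta2 (smooth muscle alpha-actin) promoter, so the drug keeps cells in which that promoter is active. Control cells (6 arrays) had no retinoic acid and were harvested at time 0, close to confluence. RA48 cells (5 arrays) and RA96 cells (6 arrays) were started at about 30% confluence and given all-trans retinoic acid at 1 µmol/L for 48 or 96 h. Puromycin cells (6 arrays) were exposed to retinoic acid for 96 h, followed by puromycin for 48 h. No group had those further 48 h without the drug, so drug and time cannot be told apart in Puromycin against RA96. Density of the treated plates at harvest is not given. Any part of density or of time in culture in a difference from Control cannot be told apart from treatment. Each array set RNA of 5 to 6 plates, labelled with Cy5, against 1 common pool of whole embryos of day 17.5, labelled with Cy3. Whether replicates were separate cultures is not given in the labels, and the spread on which the p-values rest may be technical.

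Each value is the log2 of cell signal over embryo signal. A value above 0 means more signal in the cells than in the embryo pool, and levels of different genes cannot be ranked against each other. The logarithm was read as base 10 and converted, and its direction was read from the dyes. Neither is stated, so fold sizes rest on that reading. A gene is said to have risen or fallen in a comparison where limma, fitted to all 23 arrays and adjusted with Benjamini-Hochberg over 17863 rows, gave an adjusted p under 0.05. All adjusted p-values below come from that fit unless another is named. Residuals from the group means split the arrays into 2 sets of 11 and 12, unnamed in the labels, and each set holds all 4 groups. Replicates 1 to 3 lie in set 1 and replicates 4 to 6 in set 2, except RA96 replicate 2, which lies in set 2. The component that splits the arrays held 48.9% of the variance within groups. Array medians over all rows lay between -0.08 and 0.02. In bulk RNA, fewer dividing cells and less of these transcripts per cell cannot be told apart.

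As background, a cell enters mitosis when cyclin B and the kinase Cdk1 are switched on by Cdc25 phosphatases, with the Aurora and Polo-like kinases acting beside them. The kinetochore, built on the histone variant Cenpa, ties each chromosome to spindle microtubules. The checkpoint proteins Bub1, Bub1b, Bub3, Mad2l1 and Ttk hold back Cdc20 and the anaphase-promoting complex until every chromosome is attached. After anaphase, the midzone proteins Prc1, Kif23 and Racgap1 organise the central spindle and the cleavage furrow. Many of these genes are transcribed in late cell cycle from promoters that hold CCAAT boxes and a cell cycle genes homology region.

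Those promoter boxes are shown first because genes with such boxes took different courses here. RefSeq promoters (GRCm38.p6, 250 bases before to 50 bases after a start) were held for 37 of the 43 genes, and for 30 of the 34 measured. The search covered CCAAT and TTTGAA or TTCGAA on both strands, and counted a gene where any of its entries held the letters. No motif overlapped another in the stretches printed. Of the 37 genes, 32 held at least 1 CCAAT (86.5%, against 41.1% of all 27025 genes with a promoter and 42.6% of 7022 genes on the array). At least 2 CCAAT boxes stood in 23 genes (62.2%, against 13.1% of all genes). TTTGAA or TTCGAA stood in 30 genes (81.1%, against 21.7%), and both kinds of box in 28 (75.7%, against 9.65%). These shares describe letters, and a match is not evidence of a bound site.

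Below, stretches within the 100 bases before the annotated start are given 5′ to 3′ on the gene's strand, with CCAAT and homology region letters (or their reverse complements) in capitals. Bases inside the annotated span of the gene were left off. Cdc20, Kif11, Ube2c and Top2a ended lower than in Control, Ccnb2 first rose and then fell, Cdk1 passed no test, and Prc1 rose.
Cdc20: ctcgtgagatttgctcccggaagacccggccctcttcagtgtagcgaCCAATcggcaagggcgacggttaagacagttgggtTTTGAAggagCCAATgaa
Kif11: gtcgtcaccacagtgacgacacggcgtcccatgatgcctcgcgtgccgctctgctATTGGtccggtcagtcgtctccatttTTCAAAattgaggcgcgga
Ube2c: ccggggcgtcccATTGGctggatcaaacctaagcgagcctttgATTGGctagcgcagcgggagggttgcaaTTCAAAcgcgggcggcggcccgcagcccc
Top2a: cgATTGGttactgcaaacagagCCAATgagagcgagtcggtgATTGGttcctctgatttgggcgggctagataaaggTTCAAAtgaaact
Ccnb2: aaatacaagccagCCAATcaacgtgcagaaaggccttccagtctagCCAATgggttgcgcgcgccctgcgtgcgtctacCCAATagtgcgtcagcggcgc
Cdk1: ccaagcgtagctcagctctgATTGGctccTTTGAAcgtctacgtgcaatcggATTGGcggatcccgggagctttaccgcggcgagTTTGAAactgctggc
Prc1: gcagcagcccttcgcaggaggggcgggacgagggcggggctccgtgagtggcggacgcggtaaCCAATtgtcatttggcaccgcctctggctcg

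The stretches lie at chr4:118437344-118437443 (minus strand) for Cdc20, chr19:37376282-37376381 (plus) for Kif11 and chr2:164769829-164769928 (plus) for Ube2c. Those of Top2a and Ccnb2 lie at chr11:99024200-99024289 and chr9:70421555-70421654, both on the minus strand. Those of Cdk1 and Prc1 lie at chr10:69352913-69353012 (minus) and chr7:80294351-80294444 (plus). The 3 CCAAT boxes of Ccnb2 began 87, 54 and 21 bases before its start, at an even spacing. In Cdc20 a CCAAT box and TTTGAA began 53 and 18 bases before the start, in Kif11 the corresponding boxes began 45 and 19 bases before it, and in Ube2c 57 and 29. Cdk1 had 2 CCAAT boxes and 2 copies of TTTGAA. Among measured genes with a promoter, both kinds of box stood in 18 of the 23 that ended lower in Puromycin than in Control and in 6 of the 7 that did not.

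Over the whole course the list went down. Of the 34 genes, 24 had their highest group mean in Control and 9 in RA48, and 20 had their lowest in Puromycin and 10 in RA96. The F test over the 4 groups called 27 of 34 genes, against 52.7% of all rows and 60.8% of all 8683 genes. The median log2 ratio of the 34 genes lay between 1.00 and 1.20 on the 6 Control arrays and between 0.79 and 1.08 on the 5 RA48 arrays. It lay between 0.48 and 0.82 on the RA96 arrays and between 0.32 and 0.60 on the Puromycin arrays. No RA96 or Puromycin array reached the lowest Control array, while RA48 overlapped Control and RA96 overlapped Puromycin. In Control, 27 to 30 of the 34 genes stood above the embryo pool, and in Puromycin 24 to 27 did.

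**Figure D1:**
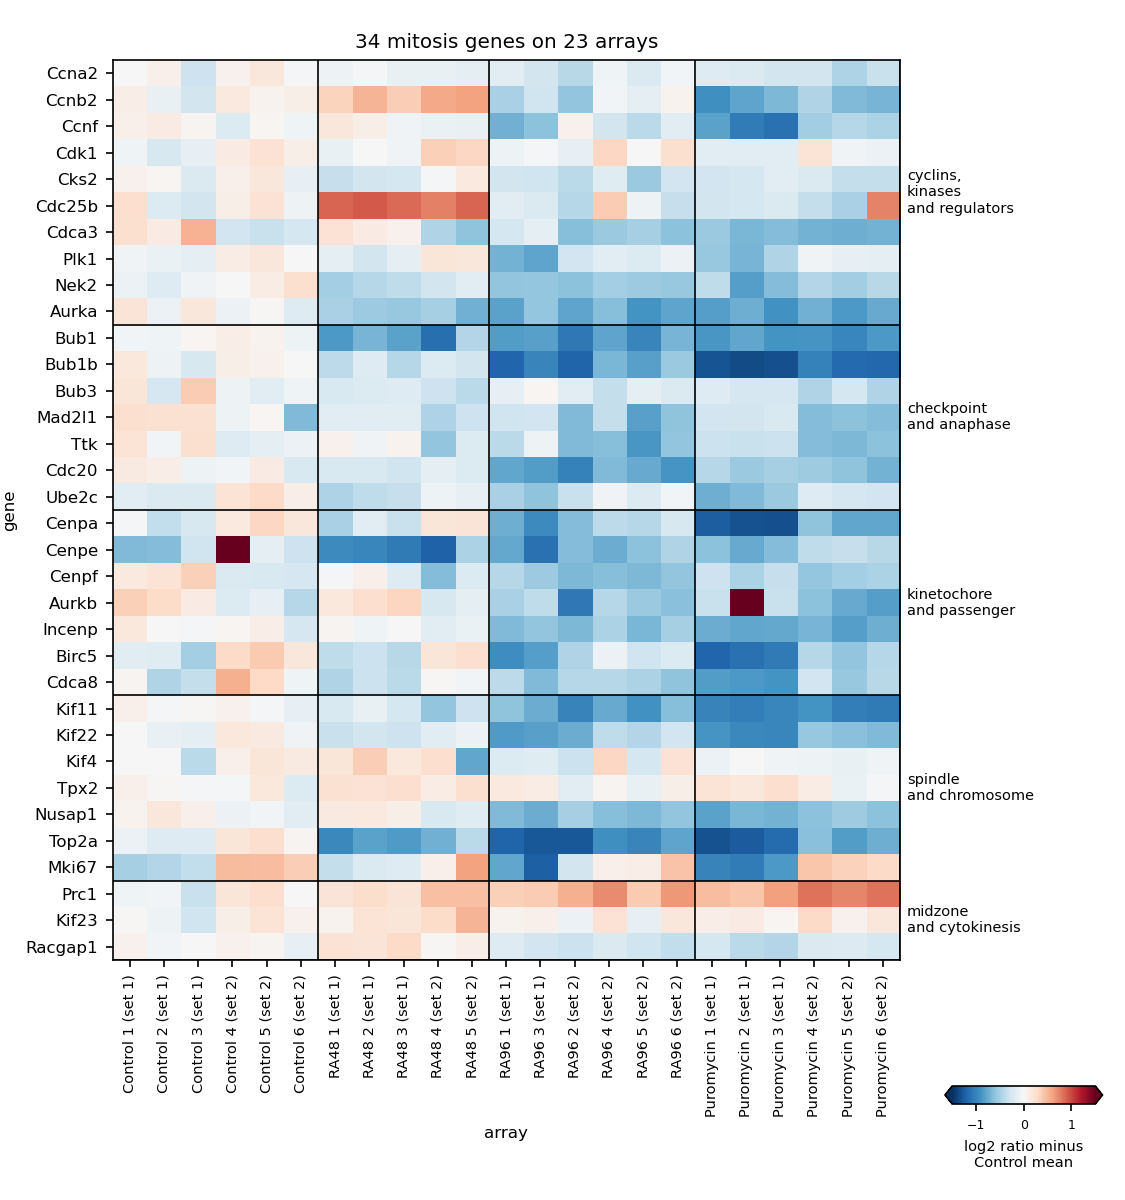
Log2 ratio minus the gene's Control mean (colour, limited to ±1.5) for 34 mitosis genes (rows, by role) on 23 arrays (columns, by group and array set). Most rows turn blue from Control to Puromycin and Prc1 turns red, while Ccnb2 and Cdc25b are red on all 5 RA48 arrays.

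**Figure D2:**
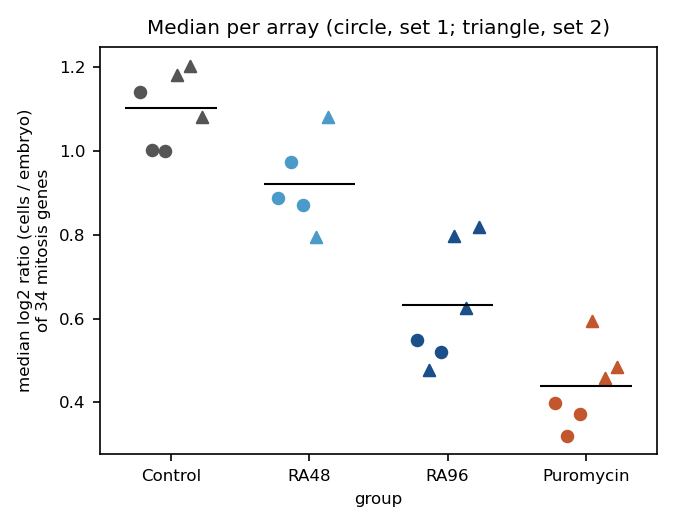
Median log2 ratio (cells over embryo) of the 34 genes on each array, by group; circles are array set 1, triangles set 2, and lines are means over arrays. The 6 Control arrays lie between 1.00 and 1.20 and the 6 Puromycin arrays between 0.32 and 0.60.

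At 48 h of retinoic acid the list was mixed. Compared with Control, 3 of 34 genes rose (11.9% of all rows were called higher) and 7 fell (14.1% called lower), with a median difference of -0.13 on the log2 scale against -0.02 over all genes. Groups did not overlap for 5 of the 34 genes, against 18.1% of rows, so counts of either kind were close to the background. Between 48 and 96 h, 11 of 34 genes fell (9.42% called lower) and 0 rose (10.4% called higher), with a median of -0.32 against -0.03. In that comparison 3 genes had a difference above 0 (Bub3, Cenpe and Prc1), 0 of them at an unadjusted p under 0.05 in limma, and 10 of 34 genes had groups that did not overlap, against 10.3%. Quantile normalization turned the first split to 7 higher and 5 lower, with a median of -0.03, and left the second at 16 lower and 0 higher.

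Against Control, 22 of 34 genes were lower at 96 h (26.1% of rows called lower) and Prc1 was higher (20.1% called higher), with a median of -0.48 against -0.05 over all genes. In Puromycin cells 25 genes were lower than in Control (26.4%) and Prc1 was again the 1 higher gene (19.8%), with a median of -0.51 against -0.06. Groups did not overlap for 13 genes at 96 h (26.0% of rows) and for 18 in Puromycin cells (28.3%). These comparisons share the Control arrays. All 22 genes lower at 96 h were among the 25 lower in Puromycin cells, which added Ccnb2, Bub3 and Ube2c. In Puromycin against RA96, called selection for short though it also spans 48 h more of culture, Cdc20 rose and Ccnb2 fell. That was 1 gene each way of 34, against 3.17% and 2.10% of rows called higher and lower. Groups did not overlap for 1 gene (Incenp) against 4.60% of rows, and the median difference was -0.02 against -0.01. Left out singly, RA96 replicate 6 took both calls away, RA96 replicate 1 raised their number to 4, and RA96 replicates 2, 3 and 5 and Puromycin replicates 1 to 4 each took that of Cdc20 away. Without RA96 replicate 2, Bub1b was called in its place.

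**Figure D3:**
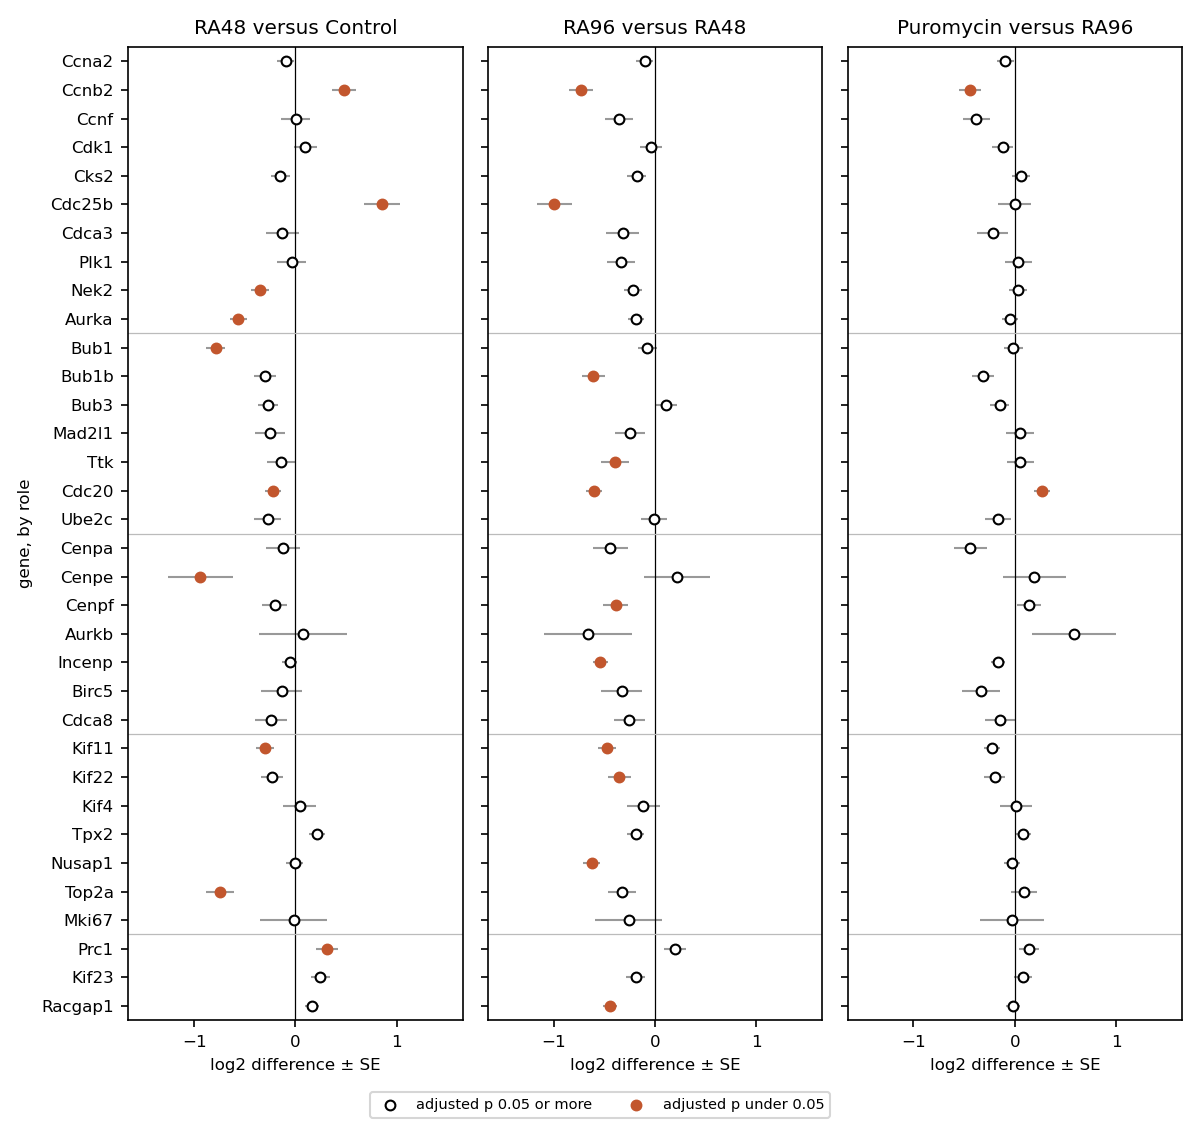
Log2 difference (x axis, point) and its standard error (bar) for each of the 34 genes (y axis, ordered by role) in the 3 successive comparisons; filled points have an adjusted p under 0.05. Filled points lie on both sides of 0 in RA48 versus Control (3 higher, 7 lower), all 11 lie below 0 in RA96 versus RA48, and 2 are filled in Puromycin versus RA96.

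The 2 retinoic acid steps were compared with their signs kept. The contrast was the change from 48 to 96 h minus that from 0 to 48 h, added after the data had been seen. It is negative also where a rise is followed by a fall, so it does not compare sizes alone. Of the 34 genes, 5 had a more negative second step (7.10% of rows called) and 1 a less negative one (6.23%). The 5 were Cdc25b (difference of steps -1.85 ± 0.31 SE, adjusted p = 0.0002), Ccnb2 (-1.21 ± 0.20, adjusted p = 0.000216), Nusap1 (-0.62 ± 0.15, adjusted p = 0.0068), Racgap1 (-0.61 ± 0.12, adjusted p = 0.00133) and Incenp (-0.48 ± 0.13, adjusted p = 0.0142). The first step was above 0 for Cdc25b (0.85, then -0.996), Ccnb2 (0.48, then -0.73) and Racgap1 (0.16, then -0.45). For Nusap1 it was -0.01 and for Incenp -0.06. Bub1 had the less negative second step (0.71 ± 0.17, adjusted p = 0.00529). With array set as a block term, 11 genes had a more negative and 3 a less negative second step, but the share of all rows in that fit was not counted. Within array set 2 alone Ccnb2 was the 1 gene called.

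Among the cyclins, kinases and regulators, 2 of 10 rose and 2 fell at 48 h, 2 fell between 48 and 96 h, and 8 were lower in Puromycin cells than in Control. Cdc25b, a phosphatase that activates Cdk1 at the start of mitosis, gave log2 ratios of -0.41, -0.36, -0.44, -0.53 and -0.41 on the 5 RA48 arrays. Its lowest, median and highest values were -1.56, -1.27 and -1.03 in Control, -1.71, -1.48 and -0.90 in RA96, and -1.77, -1.55 and -0.54 in Puromycin. Every RA48 array stood above every Control and RA96 array, and the other 3 groups overlapped, 1 Puromycin array (replicate 6) lying just below the RA48 range. The rise at 48 h was 0.85 ± 0.17 (SE; 1.81-fold, adjusted p = 0.000645) and the fall to 96 h was -0.996 ± 0.17 (1.99-fold, adjusted p = 0.000416). Against Control, Cdc25b differed by -0.14 at 96 h (95% interval -0.49 to 0.20, adjusted p = 0.511). Within set 2 alone neither step passed the test (0.74, adjusted p = 0.12, and -0.93, adjusted p = 0.084).

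Ccnb2, a B-type cyclin and partner of Cdk1, moved the same way and then further down. It measured 1.39, 1.56, 1.42, 1.63 and 1.66 in RA48. In Control its lowest, median and highest values were 0.78, 1.12 and 1.21, in RA96 0.46, 0.83 and 1.11, and in Puromycin 0.14, 0.37 and 0.61. RA48 stood apart from every other group, and Puromycin lay below all Control arrays. The differences were 0.48 ± 0.11 at 48 h (adjusted p = 0.00287), -0.73 ± 0.11 from 48 to 96 h (adjusted p = 0.000133) and -0.45 ± 0.11 on selection (adjusted p = 0.016). In each array set alone the first 2 steps passed the test and the third did not (-0.40, adjusted p = 0.072, and -0.42, adjusted p = 0.088).

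Aurka, a spindle pole kinase, fell at 48 h and was called in no later step. It measured 0.61, 0.55, 0.53, 0.59 and 0.37 in RA48, against 0.90, 1.06 and 1.28 (lowest, median, highest) in Control, 0.19, 0.30 and 0.51 in RA96, and 0.19, 0.30 and 0.37 in Puromycin. All treated arrays lay below all Control arrays. The difference from Control was -0.56 ± 0.08 at 48 h (adjusted p = 1.18e-05) and -0.80 ± 0.08 in Puromycin cells (1.74-fold lower, adjusted p = 1.68e-08). Nek2, a centrosome kinase, also fell at 48 h, by 0.35 on the log2 scale (adjusted p = 0.00536), and differed from Control by -0.54 in Puromycin cells (adjusted p = 2.45e-05).

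Cdk1, the kinase that drives mitotic entry, passed no test in these data. It measured 1.61, 1.72, 1.67, 2.07 and 2.03 in RA48. Its lowest, median and highest values were 1.48, 1.74 and 1.94 in Control, 1.60, 1.71 and 2.03 in RA96, and 1.57, 1.60 and 1.93 in Puromycin. The 4 groups overlapped throughout, and the difference between Puromycin and Control was -0.07 with a 95% interval of -0.29 to 0.15 (adjusted p = 0.645). Under quantile normalization Cdk1 was called higher at 48 h.

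Plk1, the Polo-like kinase, measured -0.40, -0.54, -0.41, -0.09 and -0.09 in RA48. Its lowest, median and highest values were -0.40, -0.29 and -0.10 in Control, -1.06, -0.52 and -0.36 in RA96, and -0.96, -0.56 and -0.32 in Puromycin. The treated groups overlapped Control, and Plk1 was lower than Control at 96 h (-0.38 ± 0.13, adjusted p = 0.0265) and in Puromycin cells (-0.34 ± 0.13, adjusted p = 0.0438). Of 23 fits that each left out 1 array, 4 lost the first call (without Control 4 or 5 or RA96 1 or 3, up to an adjusted p of 0.0747) and 7 the second (without Control 1, 4, 5 or 6 or Puromycin 1 to 3, up to an adjusted p of 0.115). With the array set as a block the difference at 96 h was -0.44 (adjusted p = 1.14e-05).

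The other 4 genes of this group ended lower in Puromycin cells than in Control by amounts between -0.27 and -0.73. Ccnf, the cyclin of a ubiquitin ligase, differed by -0.73 ± 0.13 (adjusted p = 0.000105) and was -1.07 in set 1 and -0.40 in set 2. Cdca3, a regulator of mitotic entry, differed by -0.67 ± 0.15 (adjusted p = 0.00107). Ccna2, the S and G2 phase cyclin, differed by -0.29 ± 0.08 (adjusted p = 0.00529) and Cks2, a small Cdk-binding protein, by -0.27 ± 0.09 (adjusted p = 0.0177). None of these 4 was called at 48 h or between 48 and 96 h.

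All 7 checkpoint and anaphase genes were lower in Puromycin cells than in Control, with differences from -0.31 to -1.22 and a median of -0.49. At 48 h 2 of the 7 had fallen (Bub1 and Cdc20), and 6 had in the fit with a set block. Bub1b, the checkpoint kinase-like protein that binds Cdc20, had the widest difference of the 7. It measured 1.08, 1.28, 1.05, 1.27 and 1.20 in RA48, against 1.23, 1.51 and 1.63 (lowest, median, highest) in Control, 0.28, 0.57 and 0.91 in RA96, and 0.13, 0.24 and 0.46 in Puromycin. RA48 overlapped Control slightly, and every RA96 and Puromycin array lay below every RA48 array. The difference from Control was -0.30 ± 0.11 at 48 h (not called), -0.91 ± 0.11 at 96 h (adjusted p = 3.45e-07) and -1.22 ± 0.11 in Puromycin cells (2.33-fold lower, adjusted p = 2.71e-09).

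Bub1, the checkpoint kinase at the kinetochore, reached its low level within 48 h. It measured 1.82, 2.00, 1.88, 1.56 and 2.24 in RA48. Its Control arrays ran from a lowest, median and highest value of 2.62, 2.69 and 2.78, in RA96 1.62, 1.86 and 2.00, and in Puromycin 1.72, 1.81 and 1.90. All Control arrays lay above all treated arrays, and the 3 treated groups overlapped. The fall at 48 h was -0.79 ± 0.09 (1.73-fold, adjusted p = 1.05e-06), while the next steps were -0.08 (95% interval -0.27 to 0.12) and -0.01 (95% interval -0.20 to 0.17). Its 2 probes fell by similar amounts in Puromycin cells against Control (-0.93 and -0.83).

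Cdc20, the activator of the anaphase-promoting complex that the checkpoint restrains, fell and then partly returned. It measured 1.53, 1.53, 1.46, 1.62 and 1.55 in RA48, against 1.53, 1.78 and 1.90 (lowest, median, highest) in Control, 0.75, 0.95 and 1.09 in RA96, and 1.05, 1.21 and 1.33 in Puromycin. RA96 lay below all RA48 arrays and met Puromycin only at its edge. The steps were -0.22 ± 0.08 (adjusted p = 0.0426), -0.60 ± 0.08 (adjusted p = 1.58e-05) and, on selection, 0.27 ± 0.08 (1.21-fold higher, adjusted p = 0.0388). The first step was 0.02 with quantile normalization (adjusted p = 0.923). The rise on selection was lost within each set alone (0.31, adjusted p = 0.0504, in set 1, and 0.22, adjusted p = 0.23, in set 2). Leaving out 1 array at a time lost the first fall in 8 of 23 fits (Control 1, 2, 4 or 5 or RA48 1, 2, 3 or 5, up to an adjusted p of 0.101) and the rise in 8 (RA96 2, 3, 5 or 6 or Puromycin 1 to 4, up to an adjusted p of 0.10).

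Ttk, the checkpoint kinase Mps1, fell between 48 and 96 h (-0.40 ± 0.14, adjusted p = 0.046; lost in 14 of 23 fits that left out 1 array), and was -0.49 ± 0.13 against Control in Puromycin cells (adjusted p = 0.00435). Mad2l1, which inhibits Cdc20, was -0.45 ± 0.14 (adjusted p = 0.0113) and Ube2c, the ubiquitin-conjugating enzyme of the anaphase-promoting complex, -0.45 ± 0.13 (adjusted p = 0.00535) in the same comparison. For Bub3, another checkpoint protein, the gene value of -0.31 ± 0.10 (adjusted p = 0.0112) hid a disagreement. Probe p1230 was -0.81 (adjusted p = 1.8e-07) and probe p6108 was 0.19 (adjusted p = 0.297).

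Among the 7 kinetochore and passenger genes, 1 fell at 48 h, 2 fell between 48 and 96 h, and 5 were lower than Control in Puromycin cells. Cenpa, the centromeric histone H3 variant, measured 0.70, 1.01, 0.86, 1.36 and 1.38 in RA48, against 0.82, 1.25 and 1.50 (lowest, median, highest) in Control, 0.23, 0.65 and 0.95 in RA96, and -0.13, 0.18 and 0.58 in Puromycin. Control overlapped RA48 and RA96 but not Puromycin, and in each group set 1 lay below set 2. The difference from Control was -0.57 ± 0.16 at 96 h (adjusted p = 0.00653) and -1.01 ± 0.16 in Puromycin cells (2.01-fold lower, adjusted p = 2.57e-05). With the set as a block Cenpa also fell between 48 and 96 h (-0.57, adjusted p = 3.2e-05) and on selection (-0.36, adjusted p = 0.0034).

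The chromosomal passenger complex is made of Aurkb, its scaffold Incenp, Birc5 (survivin) and Cdca8 (borealin). Birc5 measured 0.92, 0.97, 0.89, 1.48 and 1.55 in RA48, against 0.79, 1.30 and 1.70 (lowest, median, highest) in Control, 0.36, 0.92 and 1.21 in RA96, and 0.11, 0.47 and 0.87 in Puromycin. Puromycin overlapped Control at its edge and the sets lay apart in every group. Birc5 was -0.80 ± 0.19 in Puromycin cells against Control (1.74-fold lower, adjusted p = 0.00153), and -0.84 and -0.77 in the 2 sets. Incenp was -0.76 ± 0.07 (1.69-fold lower, adjusted p = 8.36e-09) and Cdca8 -0.64 ± 0.15 (adjusted p = 0.00109). The 2 probes of Incenp were both called lower but differed in size, at -0.44 (p469) and -1.07 (p4752). Incenp fell between 48 and 96 h (-0.54 ± 0.07, adjusted p = 2.43e-05) after a difference of -0.06 at 48 h (95% interval -0.21 to 0.10).

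Aurkb, the kinase of that complex, passed no test, and 1 array decided this. Its Puromycin arrays gave 4.44 on replicate 2 and 0.76 to 1.25 on the other 5. With all arrays the difference from Control was under 0.01 in size (95% interval -0.86 to 0.85). Without that array Aurkb was lower than Control at 96 h (-0.59, adjusted p = 0.00271) and in Puromycin cells (-0.58, adjusted p = 0.00507), and fell between 48 and 96 h (-0.66, adjusted p = 0.00556).

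Cenpe, the kinetochore motor that moves chromosomes to the spindle equator, measured 0.84, 0.82, 0.74, 0.59 and 1.33 in RA48. In Control its lowest, median and highest values were 1.14, 1.50 and 3.87, in RA96 0.69, 1.10 and 1.35, and in Puromycin 1.04, 1.28 and 1.45. The highest Control value came from replicate 4, and the other 5 reached at most 1.65. The fall at 48 h was -0.94 ± 0.32 (adjusted p = 0.0343), and -0.52 without that array (adjusted p = 0.00876). Without RA48 replicate 1, 2, 3 or 4 the call was lost (up to an adjusted p of 0.0775). In Puromycin cells Cenpe was -0.53 against Control, and -0.12 without that array, neither called. Its 2 probes differed. At 48 h probe p2133 gave -1.39 ± 0.60 (adjusted p = 0.0928) and probe p22227 -0.48 ± 0.13 (adjusted p = 0.00596). In Puromycin cells against Control they gave -1.06 and 0.005, neither called. On selection p22227 rose (0.44, adjusted p = 0.0308) and p2133 was not called (-0.06). Cenpf, a large kinetochore protein, was -0.59 ± 0.12 at 96 h against Control (adjusted p = 0.000303) and -0.45 ± 0.12 in Puromycin cells (adjusted p = 0.00335).

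**Figure D4:**
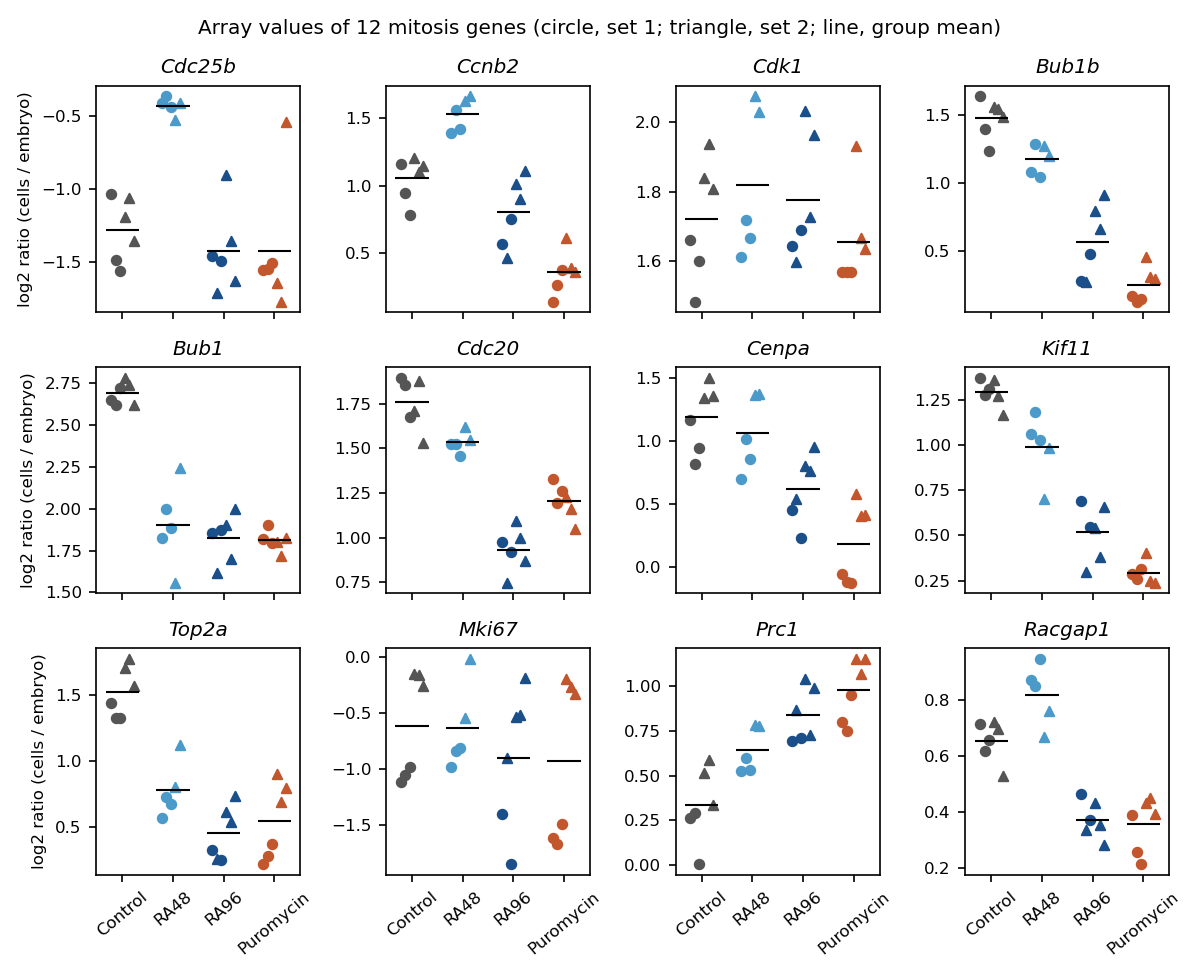
Log2 ratio (cells over embryo) of 12 of the genes on every array, by group; circles are array set 1, triangles set 2, and lines are group means. Cdc25b and Ccnb2 peak in RA48, and Bub1 and Top2a are already below Control there. Bub1b, Cenpa and Kif11 have their lowest mean in Puromycin and Prc1 its highest, and Mki67 is split by array set in every group.

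Of the 7 spindle and chromosome genes, Kif11, Kif22, Nusap1 and Top2a were lower than Control at 96 h and in Puromycin cells, and Kif4, Tpx2 and Mki67 were called in no comparison. Kif11, the motor that pushes spindle poles apart, measured 1.06, 1.19, 1.03, 0.70 and 0.99 in RA48. Its Control arrays ran from a lowest, median and highest value of 1.17, 1.29 and 1.37, in RA96 0.30, 0.54 and 0.69, and in Puromycin 0.24, 0.27 and 0.40. RA48 touched Control on 1 array, and RA96 lay below all RA48 arrays. Kif11 fell at both steps, by -0.30 ± 0.09 (adjusted p = 0.0106) and -0.47 ± 0.09 (adjusted p = 0.000577), and stood at -1.001 ± 0.08 against Control in Puromycin cells (2.00-fold lower, adjusted p = 1.08e-09). Its 3 probes gave -0.87, -1.19 and -0.95 in that comparison. The first step was lost with quantile normalization (-0.17, adjusted p = 0.148), the second within set 2 (-0.37, adjusted p = 0.067), and both with the random block.

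Top2a, the topoisomerase that untangles sister chromatids, fell at the first step. It measured 0.56, 0.73, 0.67, 0.80 and 1.12 in RA48, against 1.33, 1.50 and 1.78 (lowest, median, highest) in Control, 0.25, 0.43 and 0.73 in RA96, and 0.21, 0.53 and 0.90 in Puromycin. Every treated array lay below every Control array. The difference from Control was -0.75 ± 0.14 at 48 h (adjusted p = 0.000236), -1.08 ± 0.13 at 96 h (2.11-fold lower, adjusted p = 7.62e-07) and -0.98 ± 0.13 in Puromycin cells (adjusted p = 2.29e-06). The difference between the 2 steps was 0.42 ± 0.24 (adjusted p = 0.287), so neither step was shown to be the larger. The later step of -0.33 was not called, but was -0.42 with the set as a block (adjusted p = 0.00093). These are means over probes, and the probes differed by step. At 48 h probe p6975 gave -1.11 and probe p10479 -0.65, both called. Probe p18457 was not called there (-0.49, adjusted p = 0.0999). From 48 to 96 h p10479 fell (-0.60, adjusted p = 0.00776), while p6975 (-0.07) and p18457 (-0.32) were not called.

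Kif22, a chromosome-binding motor, measured 0.90, 0.97, 0.93, 1.09 and 1.15 in RA48, against 1.11, 1.21 and 1.40 (lowest, median, highest) in Control, 0.40, 0.65 and 0.95 in RA96, and 0.26, 0.47 and 0.67 in Puromycin. RA48 overlapped both neighbours, and Puromycin lay below all Control and RA48 arrays. Kif22 fell between 48 and 96 h (-0.35 ± 0.11, adjusted p = 0.0292; lost without RA48 2, 4 or 5 or RA96 1, 2 or 3) and was -0.78 ± 0.11 against Control in Puromycin cells (1.72-fold lower, adjusted p = 2.72e-06). Nusap1, which bundles spindle microtubules, differed by -0.01 at 48 h (95% interval -0.18 to 0.17) and then fell by -0.62 ± 0.08 (1.54-fold, adjusted p = 2.27e-05).

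Mki67, which encodes the proliferation marker Ki-67, measured -0.98, -0.84, -0.82, -0.55 and -0.02 in RA48. Its lowest, median and highest values were -1.12, -0.62 and -0.15 in Control, -1.85, -0.72 and -0.19 in RA96, and -1.67, -0.91 and -0.20 in Puromycin. Set means were -1.06 and -0.19 in Control and -1.59 and -0.27 in Puromycin, so the sets lay further apart than the groups. The difference between Puromycin and Control was -0.31 with a 95% interval of -0.96 to 0.34 (adjusted p = 0.448). With the set as a block it was also -0.31 but called (adjusted p = 0.0425), within set 1 it was -0.54 (adjusted p = 0.0022) and within set 2 -0.08 (adjusted p = 0.73). Its 2 probes gave -0.67 and 0.06, neither called.

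Kif4, a chromosome motor, and Tpx2, a spindle assembly factor that activates Aurka, ended near Control. Puromycin cells differed by -0.06 for Kif4 (95% interval -0.39 to 0.26) and by 0.10 for Tpx2 (95% interval -0.06 to 0.26). At 48 h Tpx2 differed from Control by 0.21. That was called with quantile normalization, the set block, array weights and within set 1. Within set 1 Tpx2 was also called in Puromycin against Control, and Kif4 at 48 h and from 48 to 96 h.

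Of the 3 midzone and cytokinesis genes, Prc1 was higher in Puromycin cells than in Control, Racgap1 was lower and Kif23 passed no test. Prc1, the protein that crosslinks antiparallel microtubules of the central spindle, measured 0.53, 0.60, 0.53, 0.78 and 0.78 in RA48. In Control its lowest, median and highest values were 0.01, 0.31 and 0.59, in RA96 0.69, 0.80 and 1.04, and in Puromycin 0.75, 1.01 and 1.15. RA48 overlapped Control, and all RA96 and Puromycin arrays lay above all Control arrays. Prc1 was higher than Control by 0.31 ± 0.11 at 48 h (adjusted p = 0.0357), 0.50 ± 0.10 at 96 h (adjusted p = 0.000385) and 0.65 ± 0.10 in Puromycin cells (1.56-fold, adjusted p = 2.25e-05). The rise at 48 h was lost in 7 of 23 fits that left out 1 array (Control 1, 2, 3 or 6 or RA48 2, 4 or 5, up to an adjusted p of 0.0935). The last difference was 0.65 in set 1 and 0.64 in set 2.

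Racgap1, the GTPase-activating subunit that with Kif23 forms centralspindlin, measured 0.87, 0.85, 0.95, 0.67 and 0.76 in RA48. Its Control arrays ran from a lowest, median and highest value of 0.53, 0.68 and 0.72, in RA96 0.28, 0.36 and 0.47, and in Puromycin 0.21, 0.39 and 0.45. RA96 and Puromycin lay below all Control and RA48 arrays. Racgap1 fell between 48 and 96 h (-0.45 ± 0.07, 1.36-fold, adjusted p = 0.000123) and was -0.30 ± 0.07 against Control in Puromycin cells (adjusted p = 0.000794). Neither of its 2 probes passed alone in the latter comparison (-0.33, adjusted p = 0.0742, and -0.27, adjusted p = 0.128). From 48 to 96 h probe p32 fell (-0.58, adjusted p = 0.00888) and probe p20688 was not called (-0.32, adjusted p = 0.166).

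Kif23, the motor subunit of centralspindlin, measured 1.12, 1.28, 1.26, 1.34 and 1.58 in RA48. In Control its lowest, median and highest values were 0.77, 1.11 and 1.27, in RA96 0.95, 1.14 and 1.29, and in Puromycin 1.10, 1.19 and 1.37. All 4 groups overlapped and no comparison was called, with a difference of 0.13 between Puromycin and Control (95% interval -0.06 to 0.32). In the fit with a set block, all 3 midzone genes were called higher at 48 h (Prc1 0.34, Kif23 0.26 and Racgap1 0.16).

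Of the 25 genes lower in Puromycin cells than in Control, 22 were called within set 1, 24 within set 2 and 21 within each, and Prc1 was called higher within each. Ccna2, Cks2 and Bub3 were not called within set 1, nor Mad2l1 within set 2. Of the 11 genes that fell between 48 and 96 h, 10 were called within set 1 and 6 within each set. Ttk was called in neither, and Cdc25b, Kif11, Kif22 and Cenpf were not called within set 2. Neither call of Puromycin against RA96 was made within either set. With the set as a block, 20 genes fell between 48 and 96 h and 6 on selection. That fit called more over the whole array too. Its F test called 12718 of 17863 rows in place of 9406, and 30 of the 34 genes in place of 27. P-values of the set fits are somewhat too small, because the sets were found in the same deviations. A fit with group and set as a random block, whose estimated correlation was 0.68, kept 3, 1, 0, 10 and 16 calls in the 5 comparisons in place of 10, 11, 2, 23 and 26.

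**Figure D5:**
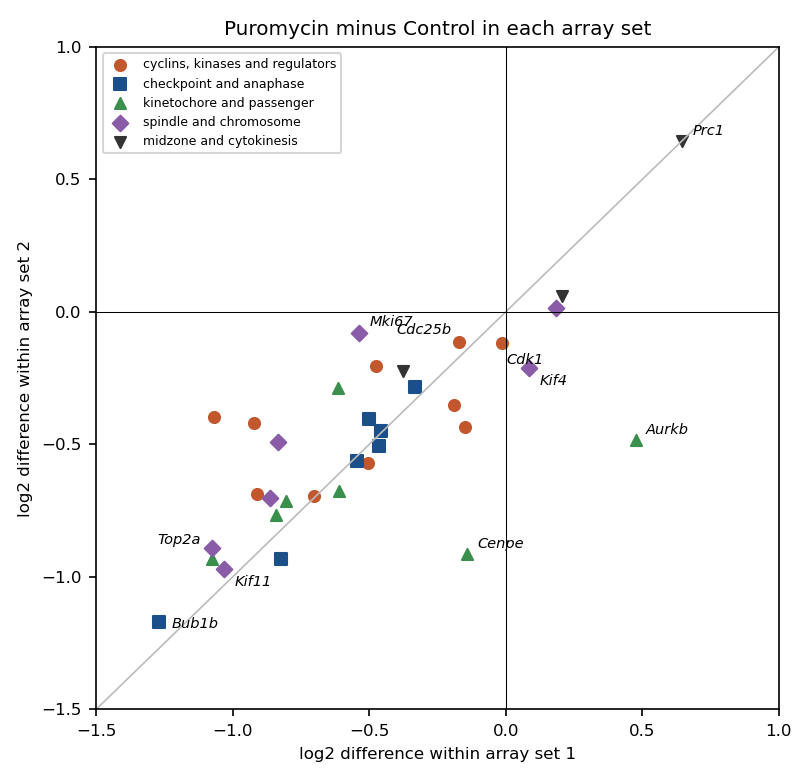
Log2 difference between Puromycin and Control for each of the 34 genes within array set 1 (x axis) and within array set 2 (y axis), with symbols by role; the diagonal marks equal differences. Of the 34 genes, 32 have the same sign in both sets, and Aurkb and Cenpe stand off the diagonal, where single arrays gave 4.44 and 3.87.

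As a description, each gene was correlated with the mean of the other 33 over the 23 arrays, which share the groups, the array sets and the embryo pool. Bub1b (r = 0.96), Kif22 (0.95), Incenp (0.94) and Kif11 (0.92) followed the others most closely, Tpx2 (0.01) and Aurkb (0.04) did not, and Prc1 had a negative value (-0.65). On deviations from the mean of each group within each array set, Tpx2 had r = 0.78 and Prc1 0.57, while Aurkb stayed at 0.06.

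A wider list held other mitotic genes. Of 72 measured genes of its 93 (other kinetochore proteins, cohesin and condensin, the anaphase-promoting complex, entry regulators, centrosome and cytokinesis genes), 9 rose and 15 fell at 48 h, where 11.9% and 14.1% of all rows were called higher and lower. From 48 to 96 h 5 rose and 10 fell, against 10.4% and 9.42%. In Puromycin cells 11 were higher and 25 lower than in Control, against 19.8% and 26.4%, with a median of -0.17. Cenpw, a centromere protein, was -1.11 ± 0.15 (adjusted p = 2.68e-06) and Spc25, a subunit of the Ndc80 complex, -0.94 ± 0.07 (adjusted p = 1.56e-10). Anln (anillin, of the contractile ring) was higher by 1.22 ± 0.16 (2.33-fold, adjusted p = 1.95e-06). Cenpc1, a protein of the inner kinetochore, was higher by 1.29 ± 0.29 (adjusted p = 0.000857), but by 2.00 in set 1 and 0.58 in set 2. Wee1, the kinase that inhibits Cdk1, was the 1 gene of this list called on selection (-0.59 ± 0.11, adjusted p = 0.00148).

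Other lists are given for Puromycin against Control, where 19.8% of rows were called higher and 26.4% lower. Of 40 measured DNA replication genes, 30 were lower and 1 higher (median -0.65). Of 14 measured cell cycle inhibitors, 9 were higher and 0 lower in limma (median 1.10; Rbl1 was lower at an unadjusted p under 0.05). Of 4 measured stress and p53 response genes, which include Cdkn1a and Ccng1 of the inhibitors, all were higher (0.69 to 3.16). Of 5 embryonal carcinoma markers 4 were lower, of 5 smooth muscle markers 4 were higher, and of 5 extraembryonic endoderm markers 3 were higher. The F test over the 4 groups called 1 of 3 measured neural markers (Nes, adjusted p = 0.00587) and 0 of 1 blood marker. It called 52.7% of all rows. The part of changed cell types, of density, of time in culture and of stress in the levels of the mitotic genes was not tested.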

How the data were processed

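Agilent arrays of both dyes compared A404 cells with pooled embryos. The authors deposited 1 log10 ratio per probe and array, read with Agilent Feature Extraction per the submitters' processing notes. Base, centring, direction, background correction and dye normalization are not given in the sources used here. Base 10 and cells over embryo were read from the dyes and the values, and every value was divided by log10(2). Signal over background is not held, so dim spots were not filtered. Of 21446 rows, 1166 that look like controls were left out, 8738 probes had no gene symbol and 442 had several. Probes of 1 symbol were averaged, giving 17863 rows and 8683 genes without missing values.

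limma 3.58.1 (R 4.3.3, statmod 1.5.0) fitted the 4 group means to all 23 arrays, with eBayes and Benjamini-Hochberg adjustment over all rows, and a call at an adjusted p under 0.05. The number of arrays limits the precision. Alternatives were centring, quantile normalization, blocks, single sets, array weights, variance trend, single probes and leaving out each array. The members and lists were chosen with earlier results of these data known. Array values are given for the 3 genes of each role with the widest range of group means, for genes called at a change of 1 or more, and for Cdk1, Plk1, Top2a and Mki67. Of the wider list, up to 2 genes each way with the largest called change are named. Promoters came from RefSeq (GRCm38.p6) and were matched by symbol.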

Additional observations from a re-analysis of the deposited data

Results flagged for a closer look

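In 9 of 136 sets of arrays (1 gene in 1 group), 1 array stood far from the others by Dixon's test, where chance gives about 1 in 20, or 6.8. All values are log2 ratios.

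Aurkb was 4.44 on Puromycin replicate 2, against 0.76 to 1.25 on the other 5, and 0.51 on RA96 replicate 2, against 0.96 to 1.21. Cenpe was 3.87 on Control replicate 4, against 1.14 to 1.65. Cdc25b was -0.54 on Puromycin replicate 6, against -1.77 to -1.50, and Cdk1 was 1.93 on Puromycin replicate 4, against 1.57 to 1.67. Mad2l1 was 0.69 on Control replicate 6, against 1.27 to 1.59. Kif4 was 1.74 on Control replicate 3, against 2.14 to 2.33, and 1.36 on RA48 replicate 5, against 2.30 to 2.51. Tpx2 was 1.09 on RA48 replicate 4, against 1.20 to 1.23. The cause was not tested.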

How the results depend on the processing

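Counts are genes called of 34, and the shares of all rows under each setting are not given. In RA48 versus Control (10), 16 were called with the replicate number as a block, 19 with the array set as a block, 18 within set 1, 3 with a random block, 19 with array weights and 6 at an adjusted p under 0.01. Quantile normalization moved the median there to -0.031 and turned Cdc20 to 0.016. In RA96 versus RA48 (11), 20 were called with the set block, 18 within set 1, 1 with the random block and 19 with array weights. In Puromycin versus RA96 (2), quantile normalization gave 1, the 2 groups alone 0, the replicate block 5, the set block 7, set 2 alone 0, the random block 0, array weights 7, an adjusted p under 0.01 0 and single probes 4. With the random block RA96 versus Control (23) gave 10, Puromycin versus Control (26) gave 16 and the F test (27) gave 13. For the second step minus the first (6), the set block gave 14, set 1 10, set 2 1, the random block 0 and array weights 19.

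Leaving out 1 array gave 7 to 12 calls in RA48 versus Control, 8 to 11 in RA96 versus RA48, 0 to 4 in Puromycin versus RA96, 19 to 25 in RA96 versus Control, 25 to 27 in Puromycin versus Control, 24 to 28 in the F test and 5 to 7 for the difference of steps. Of 78 called gene values, the sign of 1 turned in the alternative fits to gene values (Cdc20 with quantile normalization, not called there). Single probes were not counted in this, and 1 probe of Bub3 lies opposite to its gene. The random block lost 48, the set block 0, set 1 alone 9 and set 2 alone 18. The labels do not say that replicate numbers mark a shared batch. Of 33 pairs of arrays with the same number, 30 had r over 0.1 (-0.46 to 0.67 over all), and the others all hold RA96 replicate 2. That array is the 1 whose set differs from the set of the other arrays of its number. Number and set largely coincide, so these r values cannot show pairing beyond the set, and the replicate block and set block are not separate checks. The numbers were not taken as pairing. Another background correction and a filter on dim spots were not run, since the values held here are ratios. The causes were not tested.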
